A study of Mus musculus with 15 samples.

Results

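The comparison described here asks where exercise of the dam during pregnancy went with opposite expression differences in the quadriceps muscle of offspring, depending on which parent had eaten a high-fat diet. It is a difference of 2 differences: the exercise effect after a maternal high-fat diet (MHE minus MHS) minus the exercise effect after a paternal high-fat diet (PHE minus PHS). It used 12 of the 15 libraries, 3 in each of 4 groups. Of 50686 genes measured, the 13499 with a mean normalized count of at least 10 over the 15 libraries were tested, and the other 37187 were not. The effects had opposite signs in the arms for 4891 genes (36.2%). For 27 of these (0.2% of genes tested) the values of exercised and sedentary libraries did not overlap in either arm. Separate values that pointed the same way in both arms were more frequent, with 315 genes (2.33%). How many of the 27 would arise if no gene differed was not computed, so they are described gene by gene and not as a finding.

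The offspring were C57BL/6 mice, 10 months old, kept on chow and without exercise from the day after birth. In MHE the mother had eaten a 60% high-fat diet for 6 weeks before mating with a lean male, and had a running wheel during pregnancy. MHS had the same maternal diet, with the wheel locked. In PHE the father had eaten that diet for 6 weeks and the lean dam had a running wheel. PHS had the same paternal diet and a lean dam with a locked wheel. In NCS, the chow controls of both arms, the dam's wheel was locked. The dam that exercised was thus fed the high-fat diet in the maternal arm and lean in the paternal arm, and these features of the arms cannot be told apart. Total RNA depleted of ribosomal RNA was sequenced. Replicate numbers serve only as names. Nothing says how many litters stand behind the 3 libraries of a group, so each p-value rests only on the spread among the libraries, which may be partly technical.

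Quadriceps is made mostly of fast fibres, which contract with type II myosins and burn glycogen, with fewer slow fibres built on type I myosin. Capillaries, nerve endings, fibroblasts and tendon lie between the fibres, and RNA of the whole muscle holds transcripts of all of them. Growth of the fibres is held back by myostatin and activins, which circulate and act locally, and is favoured by follistatin, which binds both.

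The libraries held 18457663 to 26981745 counted reads. The MHE libraries were shallower, with 18457663 to 20139878 reads, than the MHS libraries, with 22927662 to 25781465. The 12 skeletal muscle markers summed to between 4040840 and 6610900 normalized counts in every library. Transcripts of 38 liver genes stood at 5373 CPM (read counts scaled to library size) in MHS replicate 2, 654 in MHS replicate 3, 334 in PHS replicate 1 and 242 in NCS replicate 2, against 14.1 to 47.5 in the other libraries. Fewer genes were detected in MHS replicate 3 and NCS replicate 2 (17581 and 17699) than in the others (19062 to 20771). The first part of the sample title code, whose meaning is not stated, is shared by MHE replicate 3 and the 3 MHS libraries, and by PHE replicate 2 and PHS replicates 1 and 2. A fit with this code as a term therefore rests on MHE replicate 3 for the maternal effect and on PHE replicate 2 for the paternal one.

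No gene passed the test of the difference between the exercise effects. The test was limma's moderated test on log2 of the normalized count plus 1, and the smallest Benjamini-Hochberg adjusted p was 0.999. Without adjustment 243 genes (1.8%) lay at a p under 0.05, where 675 would be expected if no gene differed. Of these, 142 (1.05%) had a positive difference, 101 (0.748%) a negative one, and 228 (1.69%) had effects of opposite sign. With edgeR, DESeq2 and limma voom on the recovered reads, 0 genes passed either, and 290, 332 and 214 lay under 0.05 without adjustment. The difference was positive for 49.6% of genes. No gene passed for either exercise effect alone with limma, where 1288 (9.54%) in the maternal arm and 508 (3.76%) in the paternal arm lay under an unadjusted p of 0.05. DESeq2 called 60 genes in the maternal arm and 1 in the paternal arm, and edgeR and voom called 0 in each. Without MHS replicate 1, limma called 109 genes in the maternal arm and 604 lay under an unadjusted p of 0.05 for the difference, and without PHS replicate 3 that last number was 859. The median standard error of the difference was 0.29 on the log2 scale.

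Effects of the same sign were more frequent than opposite ones. Both effects were positive for 4448 genes (33.0%) and both negative for 4160 (30.8%). The maternal effect was positive and the paternal one negative for 2349 genes (17.4%), and the reverse held for 2542 (18.8%). Values did not overlap in either arm and pointed the same way for 315 genes (2.33%), 176 of them (1.3%) higher and 139 (1.03%) lower in both arms. They pointed in opposite ways for 27 (0.2%), which are among the 274 that did so without PHS replicate 3. Within 1 arm, values did not overlap for 2318 genes (17.2%) in the maternal arm and 1432 (10.6%) in the paternal arm. Across genes, which are not independent replicates, the effects had a Pearson r of 0.306, which was -0.034 without PHS replicate 1. The maternal effects were more spread, with an SD of 0.597 against 0.298 for the paternal ones on the log2 scale. Of 37 tested liver transcripts all had a negative difference, with a median maternal effect of -4.71, and they make up part of that spread.

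**Figure D1:**
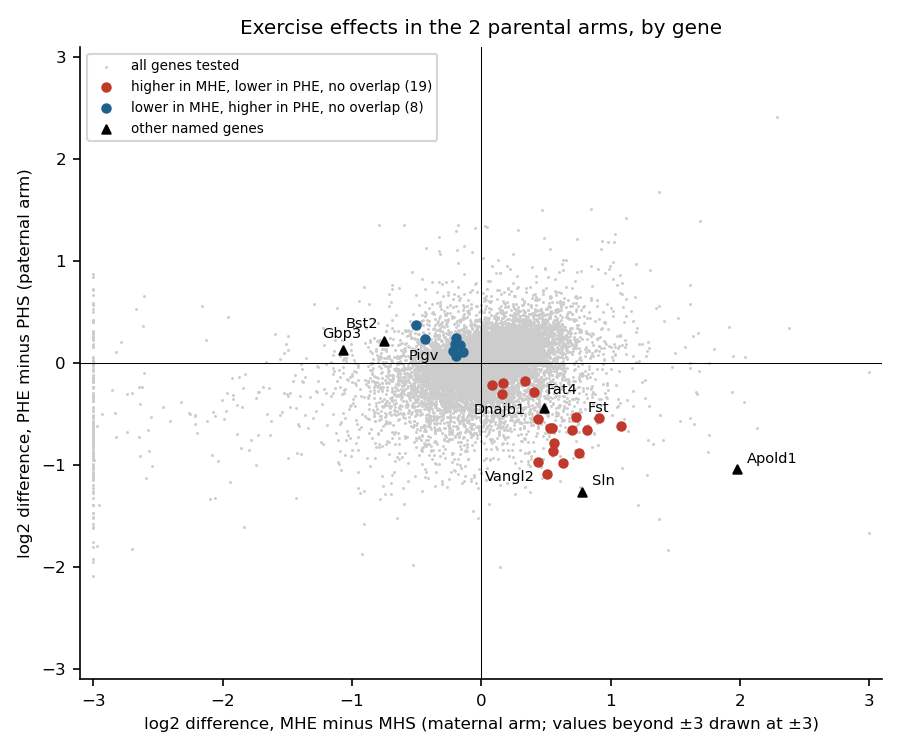
Each point is 1 of the 13499 genes tested, with the log2 difference of MHE minus MHS across and of PHE minus PHS upwards, values beyond 3 drawn at the edge. The 19 red genes, higher in MHE and lower in PHE with no overlap in either arm, lie at lower right, and the 8 blue ones, which point the other way, lie close to the origin at upper left.

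Of the 27 genes, 19 (0.141% of those tested) were higher in MHE than in MHS and lower in PHE than in PHS, and 8 (0.0593%) were the reverse. Having been picked for these values, they are given as a description. Of the 27, 14 met the rule for named genes (protein-coding, with a group mean of at least 50). The other 13 were low or noncoding and are named because they complete the set, after their values were seen. Nearest the count limit, Gm9776 averaged 10.5 over the 15 libraries, just inside it, and Msh5 averaged 7.95, just outside, as 1 of 23 genes below the limit with opposite and separate values. Some of the separations were narrow. Hacd4 had a lowest MHE value of 24.4 and a highest MHS value of 24.2, and Vangl2 had 20.4 and 20.2.

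Follistatin (Fst, ENSMUSG00000021765.7, chr13:114452290-114458951 on the minus strand of GRCm38) had the largest moderated statistic among the 27. Its normalized counts were 69.2, 58.3 and 58.6 in MHE and 46.6, 36.9 and 29.2 in MHS. They were 38.6, 43.6 and 36.5 in PHE and 60.6, 65.4 and 47.3 in PHS, and 53.9, 53.5 and 51.6 in NCS. Every MHE and PHS library lay above every MHS and PHE library, and the NCS libraries lay below MHE and within the range of PHS. The exercise effect was 0.73 in the maternal arm and -0.53 in the paternal arm, a difference of 1.25 ± 0.30 (log2, standard error; unadjusted p = 0.000784, adjusted p = 0.999). It was 0.89 without the 4 libraries with liver transcripts. Myostatin (Mstn), the growth inhibitor that follistatin binds, did not share this pattern: its means were 1329 ± 357 in MHE and 686 ± 312 in MHS, and 1325 ± 298 in PHE and 738 ± 81.6 in PHS (SD, n = 3 each), higher with exercise in both arms. Of the 22 tested genes for secreted muscle factors and their receptors, 3 were higher in MHE and lower in PHE and 4 the reverse. Their median difference was -0.03, against -0.002 for all genes tested.

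A pair of the 19 belong to planar cell polarity, by which cells align with their neighbours. Fat4, a giant cadherin of this system, had 216, 179.7 and 235 normalized counts in MHE and 165, 172 and 137 in MHS. It had 173, 172 and 153 in PHE, against 223, 192 and 190.0 in PHS. All 6 MHE and PHS libraries were above all 6 MHS and PHE libraries, and the difference was 0.69 ± 0.21. Vangl2, a membrane protein of the polarity core, was far lower, with 20.4, 20.6 and 32.7 in MHE and 18.6, 20.2 and 11.9 in MHS, then 9.08, 7.07 and 15.3 in PHE and 17.8, 26.7 and 23.6 in PHS. Within each arm its values were separate, by little in the maternal arm, and the difference was 1.60 ± 0.51. Such polarity genes were in no list, so this pairing was noticed after the values were seen.

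Plekhh2, a cytoskeletal protein with a FERM domain, was the third of the 19 above a group mean of 50 by size of the moderated statistic. It had 57.0, 61.9 and 58.6 normalized counts in MHE, against 46.6, 43.9 and 32.4 in MHS. It had 35.2, 43.6 and 43.3 in PHE, against 58.8, 63.0 and 68.9 in PHS. The MHE and PHS libraries lay above all MHS and PHE libraries, while NCS ranged over nearly the whole span, from 30.5 to 66.8. The difference was 1.17 ± 0.37.

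The remaining genes on this side were mostly low. Among receptors were Ephb2, a receptor tyrosine kinase for ephrin-B ligands, with a difference of 1.63 ± 0.58 and normalized counts of 9.16, 13.4 and 13.5 in MHE and 7.45, 8.79 and 4.32 in MHS, then 6.81, 7.07 and 5.94 in PHE and 15.1, 12.1 and 11.8 in PHS. Gpr161, an orphan receptor of the primary cilium that restrains Hedgehog signalling, differed by 1.35 ± 0.44. Cytoskeletal members were Map2, a microtubule-binding protein best known from neurons (0.99 ± 0.37), and Cttnbp2, which binds cortactin (1.36 ± 0.49). Matn4, a matrix matrilin, differed by 1.41 ± 0.83, with values of 4.71 to 21.7 in the 4 high-fat groups. The enzymes Degs1, which introduces the double bond of ceramide (0.30 ± 0.20, or 0.19 without PHS replicate 1), and Hacd4, of the 3-hydroxyacyl-CoA dehydratase family (1.45 ± 0.65, or 0.92 without MHS replicate 3 and 0.66 without the 4 libraries with liver transcripts), and the Ral activator Rgl1 (0.51 ± 0.21) were also here. Ankrd10 (0.46 ± 0.17), Trp53rka (0.36 ± 0.22, or 0.24 without PHS replicate 3), Mthfsl (1.19 ± 0.43), Gm5112 (1.70 ± 0.60), Gm9776 (1.62 ± 0.62), Gm14453 (1.47 ± 0.60) and Gm20655 (1.42 ± 0.78, or 0.85 without the 4 liver libraries) complete the 19. Hacd4, Gm14453 and Gm20655 overlap the more abundant Focad, Rbm38 and Txlnb on the other strand. The library kit marks strand, but no source says whether the counting used it, so their values are uncertain.

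The 8 genes that were lower in MHE and higher in PHE were more abundant, apart from Fosl1, with small differences. Pigv (chr4:133660387-133672647, minus strand, GRCm38), a mannosyltransferase of the GPI anchor that fixes proteins to the cell surface, led them. It had 229, 245 and 244 normalized counts in MHE and 319, 356 and 298 in MHS. It had 322, 322 and 305 in PHE and 263, 277 and 266 in PHS, and 340.4, 252 and 312 in NCS. All MHE and PHS libraries lay below all MHS and PHE libraries, and the difference was -0.67 ± 0.18 (unadjusted p = 0.00191, adjusted p = 0.999). Lman2l, a lectin of transport between the endoplasmic reticulum and the Golgi, had 491, 549 and 545 in MHE and 598, 603 and 622 in MHS. It had 627, 604 and 642 in PHE and 556, 557 and 534 in PHS, again with no overlap. Its difference was -0.39 ± 0.14.

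Timmdc1 and Acad9 are both assembly factors of respiratory complex I. They were in no list, so this pairing too was noticed after the values were seen, and other assembly factors were not examined. Timmdc1 had 532, 504 and 498 normalized counts in MHE, against 603, 567 and 552 in MHS. In PHE it had 574, 622 and 536, against 507, 494 and 532 in PHS. Acad9, which is also an acyl-CoA dehydrogenase, had 544, 569.5 and 545 in MHE, against 599.9, 583 and 649 in MHS. In PHE it had 602, 592 and 603, against 535, 574 and 555 in PHS. For each of these factors every MHE and PHS library lay below every MHS and PHE library, with differences of -0.34 ± 0.14 and -0.25 ± 0.13. Of 36 tested subunits of complex I itself, 27 were lower with exercise in both arms (30.8% of all genes were). Of the subunits, 9 were higher in MHE and lower in PHE (17.4% of all genes), and 0 the reverse (18.8%). The medians of the subunits were -0.13 in the maternal arm and -0.11 in the paternal arm. Scaling to library totals moved the medians of all genes from 0.002 to 0.106 in the maternal arm. In the paternal arm it moved them from 0.01 to -0.075, so these counts may depend on scaling.

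The rest of this side were Dus2, which makes dihydrouridine in transfer RNA (-0.44 ± 0.18, or -0.275 without the 4 libraries with liver transcripts), Stk16, a kinase of the Golgi (-0.33 ± 0.16), Mrfap1 (-0.26 ± 0.15) and Fosl1, a Fos-family partner of AP-1 (-0.88 ± 0.52), which had at most 30.3 normalized counts. Lman2l, Dus2, Stk16 and Fosl1 overlap Fer1l5, Ddx28, Tuba4a and Ccdc85b on the other strand, of which Ddx28, Tuba4a and Ccdc85b were more abundant, so these values are uncertain as well. Of 13499 genes tested, 14 had the 6 MHE and PHS libraries wholly apart from the 6 MHS and PHE libraries, 7 in each direction. Any such gene is among the 27 by definition. In 21 of the 27 the NCS mean lay within the range of the 4 high-fat group means. The share over all genes was not computed, so this is not shown to be a trait of the 27. All 27 kept the sign of the difference under every alternative in which they were tested (25 or 26). Leaving out libraries, other pseudocounts, other filters and the fit without NCS could not turn it, because separate values stay separate there. Those alternatives therefore say nothing about stability. Only the other scalings, the count methods and the covariates could have turned the sign. Scaled to library totals, only 18 still had separate values in opposite directions. That scaling moved the median difference of all genes to 0.19 and brought Lman2l to -0.20, Timmdc1 to -0.15, Stk16 to -0.14, Acad9 to -0.064 and Mrfap1 to -0.069.

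**Figure D2:**
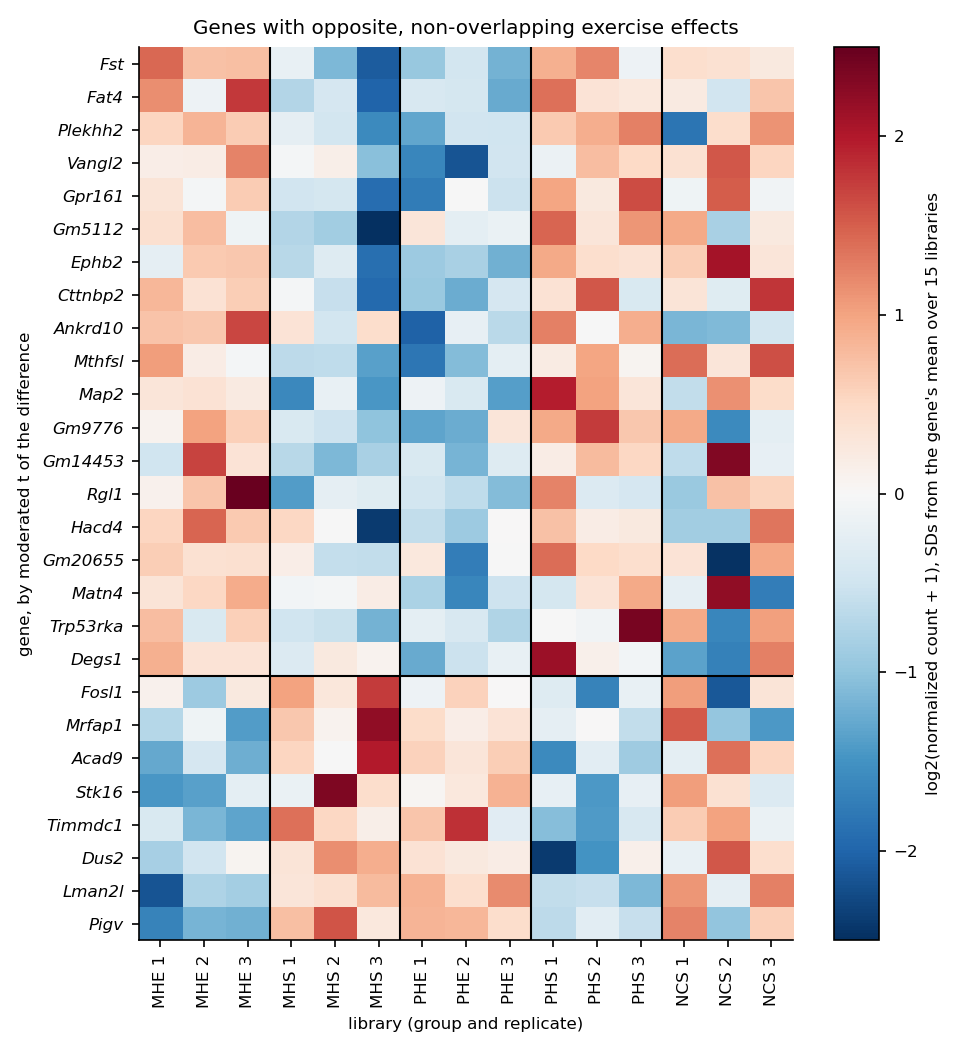
The 27 genes (down the page, by moderated statistic) in the 15 libraries, as log2(normalized count + 1) in SDs from the gene's mean. Red MHE and PHS blocks beside blue MHS and PHE blocks mark the upper 19 genes, the lower 8 show the reverse, and the NCS libraries vary without a common sign.

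**Figure D3:**
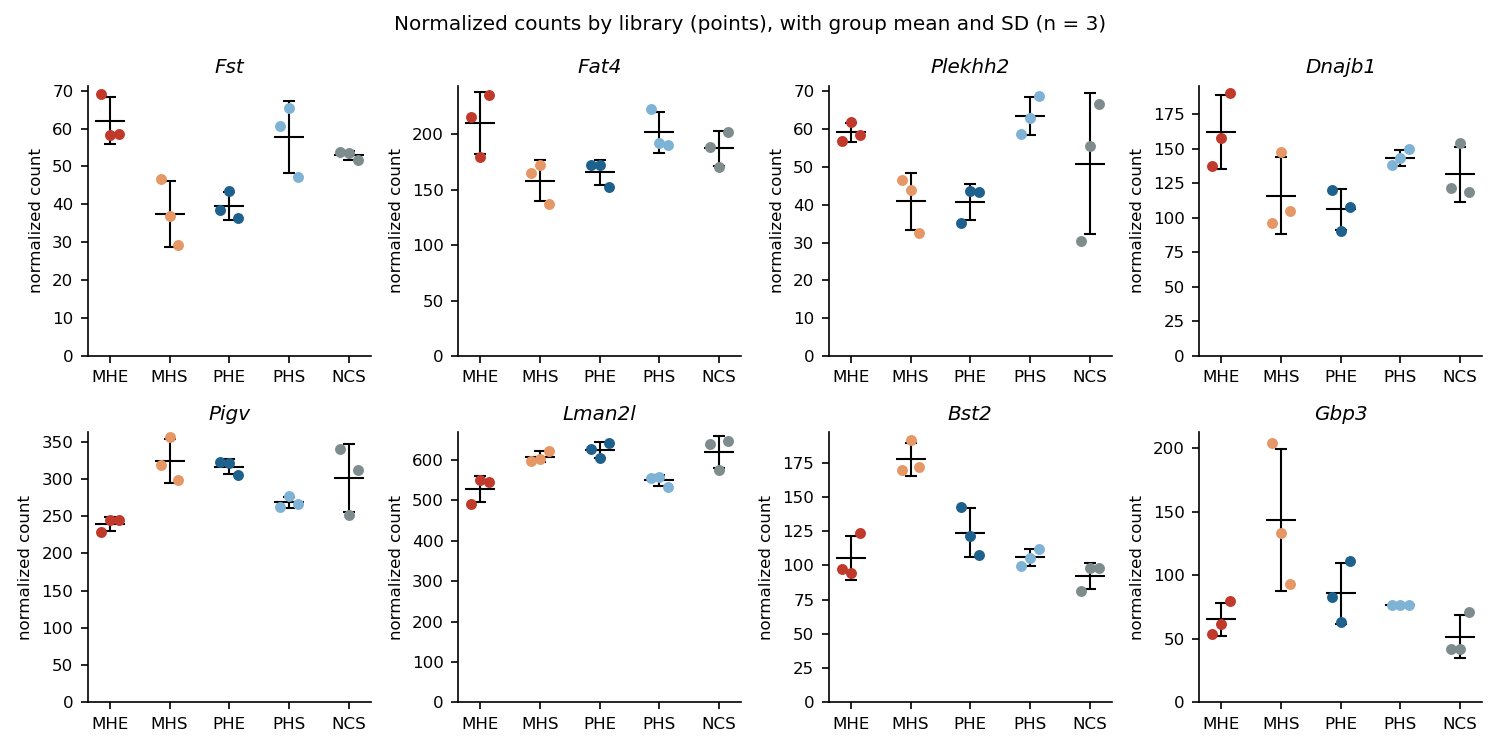
Normalized counts of 8 genes by library (points), with the group mean and SD (n = 3). Fst, Fat4 and Plekhh2 are high in MHE and PHS, Pigv and Lman2l are low there, and Bst2 and Gbp3 are high mainly in MHS.

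Interferon-response and antigen-presentation genes were, after liver transcripts, the list with the lowest median maternal effect, while their median paternal effect was close to 0. These genes respond to interferons through STAT and IRF factors, which bind gamma-activated sites and interferon-stimulated response elements near the start site. Of 45 tested, 36 had a negative difference (50.4% of all genes did), and the medians were -0.52 in the maternal arm, -0.03 in the paternal arm and -0.48 for the difference. In 24 of the 45 the level was lower with exercise in both arms (30.8% of all genes), and in 3 it was higher in both. In 16 it was lower in MHE and higher in PHE (18.8% of all genes), and in 2 the reverse. Of the 45, 0 had opposite and separate values in both arms. Scaled to library totals the 16 and 2 became 8 and 5, and the median difference was -0.30, against 0.19 for all genes. Without overlap 19 were lower in MHE than in MHS (8.61% of all genes) and 2 were lower in PHE than in PHS (5.5%). In the fit that takes the title code into account, where the maternal effect rests on MHE replicate 3, the median difference was -0.11. That library had a higher mean of these genes, 0.57 above NCS on the log2 scale, than the 0.093 and 0.14 of the other MHE libraries. The MHS libraries stood at 0.996, 0.748 and 0.528, so the mean level of the list overlapped between MHE and MHS. In RNA of whole muscle, fewer cells of a type and less RNA per cell cannot be told apart.

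The promoters of the genes of this list with opposite signs and the smallest p, Bst2 and Gbp3, are printed because the matches to these elements lie within them. They are the 250 bases before the start site, 5′ to 3′ on the strand of the gene, from RefSeq on GRCm38.p6, and capitals mark matches on either strand. The interferon-stimulated response element was searched as GAAA and GAAA with 2 bases between them, the gamma-activated site as TTC and GAA with 3 bases between them, and the heat shock element as GAA, TTC and GAA with 2 bases between neighbours.
Bst2, chr8:71537473-71537722, minus strand: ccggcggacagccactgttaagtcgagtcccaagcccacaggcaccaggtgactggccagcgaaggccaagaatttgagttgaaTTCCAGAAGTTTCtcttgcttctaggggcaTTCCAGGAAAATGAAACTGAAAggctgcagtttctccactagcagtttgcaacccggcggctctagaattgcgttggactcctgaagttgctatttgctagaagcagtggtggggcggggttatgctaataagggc
Gbp3, chr3:142559794-142560043, plus strand: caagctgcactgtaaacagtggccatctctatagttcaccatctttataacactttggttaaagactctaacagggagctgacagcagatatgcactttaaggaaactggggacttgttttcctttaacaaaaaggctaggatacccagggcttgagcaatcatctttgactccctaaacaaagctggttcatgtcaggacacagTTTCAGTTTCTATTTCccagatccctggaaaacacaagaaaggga
In Bst2 the second run of capitals joins a gamma-activated site with 2 response elements that overlap each other, and the first run is a heat shock element on the other strand. In Gbp3, 2 response elements overlap on the other strand, and a further promoter listed for this gene held no match. Of the list, 34 genes had a promoter in the table, and 16 of these held the response element, 11 the gamma-activated site and 1 the heat shock element. Among all 27018 genes with a promoter the shares were 3.46%, 8.13% and 0.514%. A match is a description of letters and not a site of binding.

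Bst2, or tetherin, an interferon-induced membrane protein that holds budding virus at the cell surface, had the smallest p of the 45. Its normalized counts were 97.7, 94.7 and 124 in MHE and 169.5, 192 and 172 in MHS, which do not overlap. They were 143, 121 and 108 in PHE and 99.8, 106 and 112 in PHS, which overlap, and 81.3, 98.0 and 97.9 in NCS. MHS stood apart from the other 4 groups. The difference was -0.97 ± 0.23 (unadjusted p = 0.000623, adjusted p = 0.999). Gbp3, a guanylate-binding GTPase of cell-autonomous defence, had 53.9, 61.9 and 80.0 in MHE and 204, 134 and 92.9 in MHS, against 82.9, 63.6 and 111 in PHE and 76.6, 76.8 and 76.8 in PHS. Its difference was -1.19 ± 0.41, and -0.91 without MHS replicate 1, the highest library, -1.77 without the 4 libraries with liver transcripts and -0.50 with the title code taken into account. Named after their values were seen, Tap1, the peptide transporter of MHC class I loading, differed by -1.03 ± 0.44, the immunoproteasome subunit Psmb9 by -1.10 ± 0.38 and the class I heavy chain H2-K1 by -0.68 ± 0.20. Their paternal effects were -0.07, -0.05 and -0.03.

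Genes known to be induced by shear stress, heat or activity did not share a direction, and those that the rule for named genes picked are given here. Apold1, an early-response gene of endothelium, had 74.3, 59.5 and 212 normalized counts in MHE, against 36.3, 35.2 and 10.8 in MHS. It had 19.3, 17.7 and 62.0 in PHE, against 137, 25.0 and 57.1 in PHS. The MHE and MHS values were separate and the PHE and PHS values were not, and the difference of 3.02 ± 0.96 became 1.84 without the 4 libraries with liver transcripts. Dnajb1, the heat-inducible HSP40 co-chaperone, averaged 162 ± 26.7 in MHE and 116 ± 27.7 in MHS, against 106 ± 14.9 in PHE and 144 ± 5.78 in PHS (SD, n = 3 each), a difference of 0.93 ± 0.27. The paternal values were separate, and the maternal ones narrowly overlapped, since MHS replicate 2 with 148 lay above the lowest MHE value of 137. Klf2, a shear-responsive factor of endothelium, differed by 1.44 ± 0.62, with 593, 556 and 358 in MHE and 378, 304 and 184 in MHS, then 312, 254 and 472 in PHE and 506, 483 and 548 in PHS. Its values were separate in the paternal arm alone, and its difference was 0.99 without the 4 libraries with liver transcripts. Egr3, an activity-induced factor of muscle spindles and neurons, differed by 2.90 ± 1.29 at no more than 34.9 normalized counts, or by 2.06 without those 4 libraries. Nr4a3, an orphan nuclear receptor induced by muscle activity, had the reverse sign, with a difference of -1.95 ± 1.40. Without the 4 libraries with liver transcripts the difference of Nr4a3 was only -0.28. It had 394, 60.7 and 60.8 in MHE and 63.3, 174 and 460.3 in MHS, then 74.9, 408 and 482 in PHE and 67.7, 104 and 122 in PHS, and its values overlapped in both arms.

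The lists that hold these genes were mixed. Of 20 immediate early genes, 7 were higher in MHE and lower in PHE, 3 were the reverse and 10 had effects of 1 sign, and 7 had a negative difference. Their median difference of 0.33 was -0.022 without MHE replicate 3. Of 21 endothelial genes, 8 were higher in MHE and lower in PHE and 2 the reverse, with a median of 0.12, or 0.056 and 5 against 4 without PHE replicate 1. Of 28 genes of the NRF2, glutathione and heat shock list, 6 had opposite signs, 3 in each direction, with a median of -0.04.

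Collagens and other matrix genes, made chiefly by fibroblasts, were the list with most members higher in MHE and lower in PHE. Of 34 tested, 20 had this pattern (17.4% of all genes did) and 2 the reverse, and the median was 0.26 in the maternal arm, -0.31 in the paternal arm and 0.50 for the difference. This rested on MHE replicate 3: without it 4 of 34 had the pattern and the median difference was -0.01. The summed normalized counts of the list were 27200, 23856 and 80903 in MHE, against 23257 to 34235 in MHS. They were 22998 to 29264 in PHE, against 23801 to 37696 in PHS. Periostin (Postn), a matricellular protein of tendon and wounds, had 69.2, 80.1 and 1630.2 normalized counts in MHE and 80.1, 85.3 and 106 in MHS, then 98.8, 48.3 and 65.4 in PHE and 157, 129 and 284 in PHS. The paternal values were separate, the maternal ones were not, and the difference of 2.60 ± 1.17 was 1.12 without MHE replicate 3. When the title code was taken into account, Postn was the 1 gene that passed (log2 difference 5.71, adjusted p = 0.0315), in a fit whose maternal effect rests on that library alone. Col8a1, a short-chain collagen of vessel walls, was less tied to it: it differed by 0.77 ± 0.27, and by 0.65 without that library, with 69.2, 90.7 and 82.4 in PHE, all below the 98.0, 116 and 113 of PHS.

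Tendon genes ran the same way. All 11 tested had a positive difference, 6 were higher in MHE and lower in PHE, and the median difference was 0.82, or 0.32 without MHE replicate 3 and 1.25 without PHE replicate 1. Tenomodulin (Tnmd), a membrane protein of tenocytes, had 52.9, 30.4 and 93.5 normalized counts in MHE and 27.9, 26.4 and 36.7 in MHS, then 37.5, 16.5 and 30.6 in PHE and 46.3, 26.7 and 40.4 in PHS. The fibrillar collagen gene Col11a1 differed by 1.70 ± 0.85, and by 0.92 without MHE replicate 3. Summed tendon counts in MHE were 8792, 3124 and 8971, so 2 of the 3 libraries held more than any other library of the 12. They were 2554 to 6499 in MHS, 2913 to 5663 in PHE and 2807 to 5642 in PHS. The part of tendon and fibroblast RNA in the 27 genes was not tested.

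Slow fibre genes differed in size between the arms more than in direction. All 16 tested genes of the slow fibre sarcomere and its calcium handling had a positive difference, yet 13 were lower with exercise in both arms, with medians of -0.28 in the maternal arm and -0.89 in the paternal arm. The difference rested on PHE replicate 1, which held 3842 normalized counts of slow myosin (Myh7) against 27089 and 23599.5 in the other PHE libraries. Without it the median difference was -0.067, against 0.62 with it, and it was 0.17 without the 4 libraries with liver transcripts and -0.29 with the title code taken into account. Sarcolipin (Sln), a small inhibitor of the sarcoplasmic calcium pump, was 1 of 3 with opposite signs. It had 40.7, 61.9 and 82.2 in MHE and 61.5, 23.7 and 27.0 in MHS, then 11.4, 28.3 and 40.8 in PHE and 54.4, 36.4 and 99.4 in PHS, which overlap in both arms. Its difference was 2.04 ± 0.73, or 1.54 without PHE replicate 1 and 1.26 without the 4 libraries with liver transcripts.

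Fast fibre genes pointed the other way. Of 15 tested, 9 were lower in MHE and higher in PHE and 0 the reverse, with medians of -0.15 in the maternal arm and 0.05 in the paternal arm. The fast myosin-binding protein gene Mybpc2 differed by -0.58 ± 0.32 and the type IIb myosin gene Myh4 by -0.62 ± 0.38, neither with separate values in the paternal arm. Without the 4 libraries with liver transcripts these differences were -0.29 and -0.31. Without PHE replicate 1, 4 of the 15 had this pattern and the median difference was -0.11, against -0.18 with it. Of 25 genes of glycolysis and glycogen use, 9 were lower in MHE and higher in PHE and 1 the reverse, with a median difference of -0.25 (3 and 2 without PHE replicate 1, median -0.17). Muscle glycogen phosphorylase (Pygm) differed by -0.52 ± 0.31, or by -0.22 without those 4 libraries. Scaling to library totals moved the median difference of all genes to 0.19, and the medians of the fast fibre and glycolysis lists to 0.013 and -0.055, so relative to all genes they stayed lower.

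Genes of regeneration, innervation and growth held scattered pairs. Embryonic myosin (Myh3), a mark of newly formed fibres, had 265, 352 and 297 normalized counts in MHE and 289, 243 and 212 in MHS. It had 146, 144 and 183 in PHE, all below the 207, 221 and 281 of PHS. The difference was 0.87 ± 0.39. Myf6, a myogenic factor that persists in adult fibres, differed by -0.39 ± 0.18, or by -0.25 without the 4 libraries with liver transcripts, and of 17 genes of its list 5 pointed each of the opposite ways. The acetylcholine receptor subunit Chrna1 differed by 0.67 ± 0.24 and Rapsn, which clusters that receptor, by -0.48 ± 0.25, or by -0.25 without those 4 libraries. Of 18 imprinted growth genes, 8 were higher in MHE and lower in PHE and 2 the reverse, with a median difference of 0.41, or 3 and 1 with a median of 0.26 without MHE replicate 3. The fetal growth factor gene Igf2 differed by 0.55 ± 0.29 and by 0.31 without that library.

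Markers of other cells in the muscle differed between the arms in single genes. Of 14 adipocyte genes, 11 had opposite signs, 5 as higher in MHE and lower in PHE and 6 the reverse, with a median difference of -0.05. Without the 4 libraries with liver transcripts, 10 were higher in MHE and lower in PHE and the median was 0.78, while without PHE replicate 1 it was 0.11. Fabp4, the fatty acid carrier of adipocytes and capillary endothelium, averaged 3981 ± 391 in MHE and 3015 ± 304 in MHS, against 3352 ± 520.0 in PHE and 3953 ± 804 in PHS (SD, n = 3 each), a difference of 0.63 ± 0.26. In the maternal arm its values were separate, and in the paternal arm they overlapped. Of 19 Schwann cell and myelin genes, 5 were higher in MHE and lower in PHE and 6 the reverse. All 7 erythrocyte genes had a negative difference, with medians of 0.03 in the maternal arm and 1.03 in the paternal arm, and the median difference of -1.02 was -0.27 without the 4 libraries with liver transcripts and -0.64 without PHE replicate 1. The globin gene Hba-a2, which has a near-identical copy, had 468, 193 and 224 in PHE, all above the 163, 94.5 and 136 of PHS. Its MHE and MHS values overlapped, and its difference of -1.16 ± 0.59 was -0.77 without PHE replicate 1 and -0.27 without the 4 liver libraries.

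Lists of respiratory chain subunits, protein breakdown and the circadian clock had mostly effects of 1 sign in both arms. In glycolysis and lipid synthesis 10 of 25 (40%) and 10 of 22 (45.5%) had opposite signs, near the 36.2% of all genes. Of 42 subunits of complexes II to V, 36 were lower with exercise in both arms. Of 31 proteasome subunits 26, and of 29 atrophy and FoxO target genes 23, were higher in both arms. Of 19 clock genes, 1 had opposite signs. These counts compare with 30.8% of all genes lower and 33.0% higher in both, and they depend on scaling: scaled to library totals, 15 of the 42 subunits, 6 of the 31 proteasome genes and 5 of the 19 clock genes were higher in MHE and lower in PHE. The 7 tested transcripts of the mitochondrial genome were all higher in both arms, but this rested on single libraries. Without PHS replicate 3, which had a mean of -0.35 relative to NCS on the log2 scale against 0.71 and 0.68 in the other PHS libraries, 6 of the 7 were higher in MHE and lower in PHE. Without MHS replicate 3, at -1.01, their median maternal effect was 0.175, against 0.59 with it, and the median difference was -0.062, against 0.35. Without the 4 libraries with liver transcripts the median difference was -0.302. Trim63, the muscle ubiquitin ligase MuRF1, had effects of 0.53 in the maternal arm and 1.12 in the paternal arm, and its difference of -0.58 ± 0.48 was -0.26 without MHE replicate 2 and -0.98 without PHS replicate 3. Pdk4, which spares glucose by blocking pyruvate entry to the mitochondria, had 0.35 and 0.32, and Ppargc1a, the PGC-1alpha coactivator of mitochondrial genes, had -0.54 and -0.24. The glucose transporter gene Slc2a4 had -0.07 in the maternal arm and 0.07 in the paternal arm, with a difference of -0.13 ± 0.22.

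**Figure D4:**
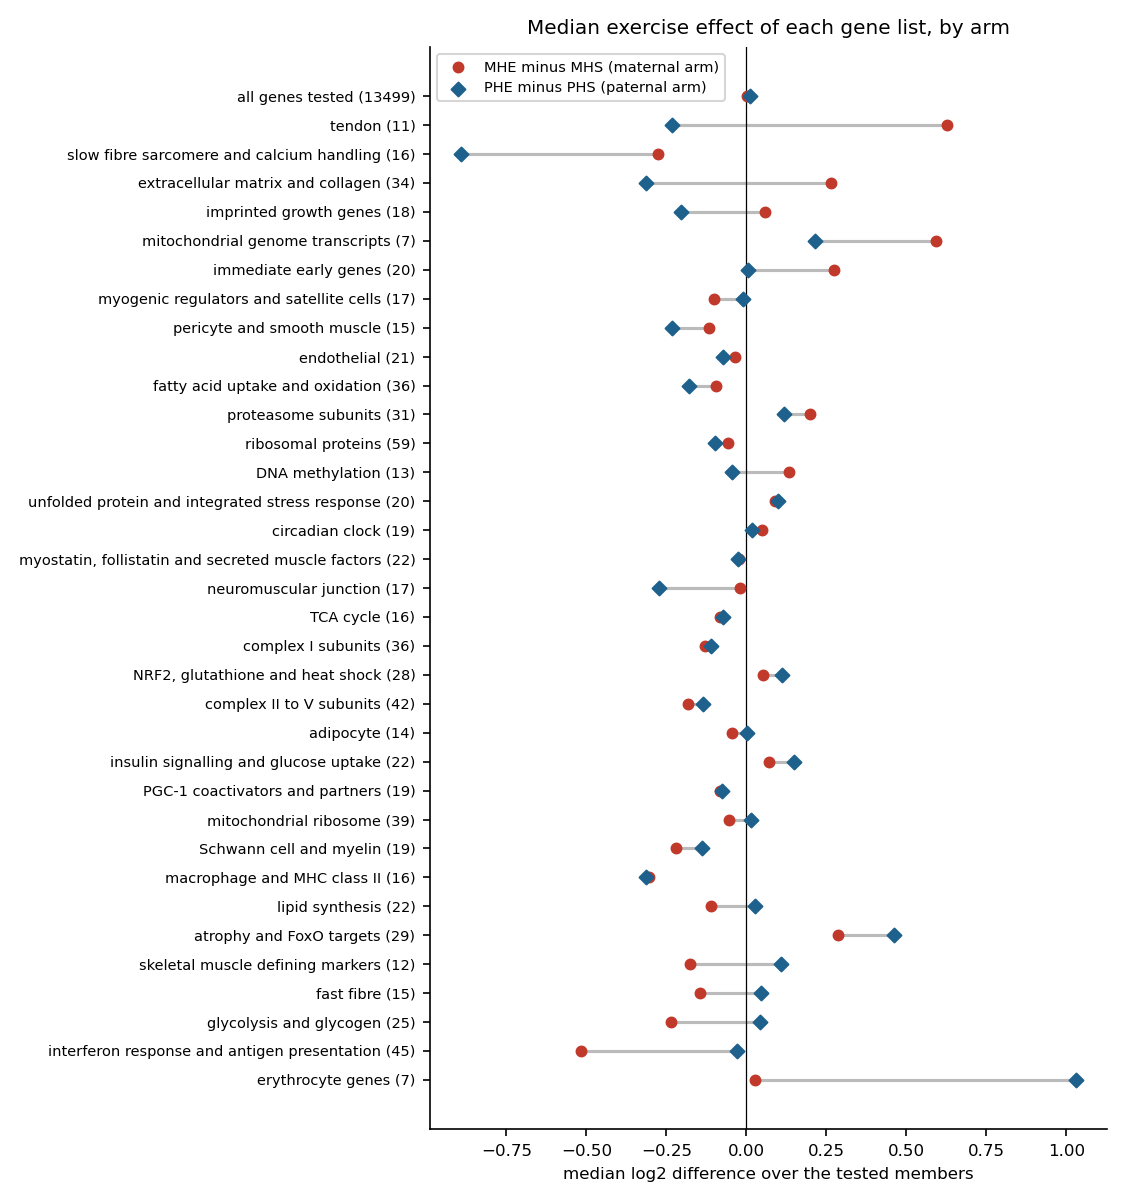
Median log2 exercise effect over the tested members (number in brackets) of each gene list with at least 7 tested, liver transcripts left out, in the maternal arm (circles) and the paternal arm (diamonds). Tendon and matrix genes lie on either side of 0, and interferon-response genes are at -0.52 in the maternal arm and -0.03 in the paternal arm.

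**Figure D5:**
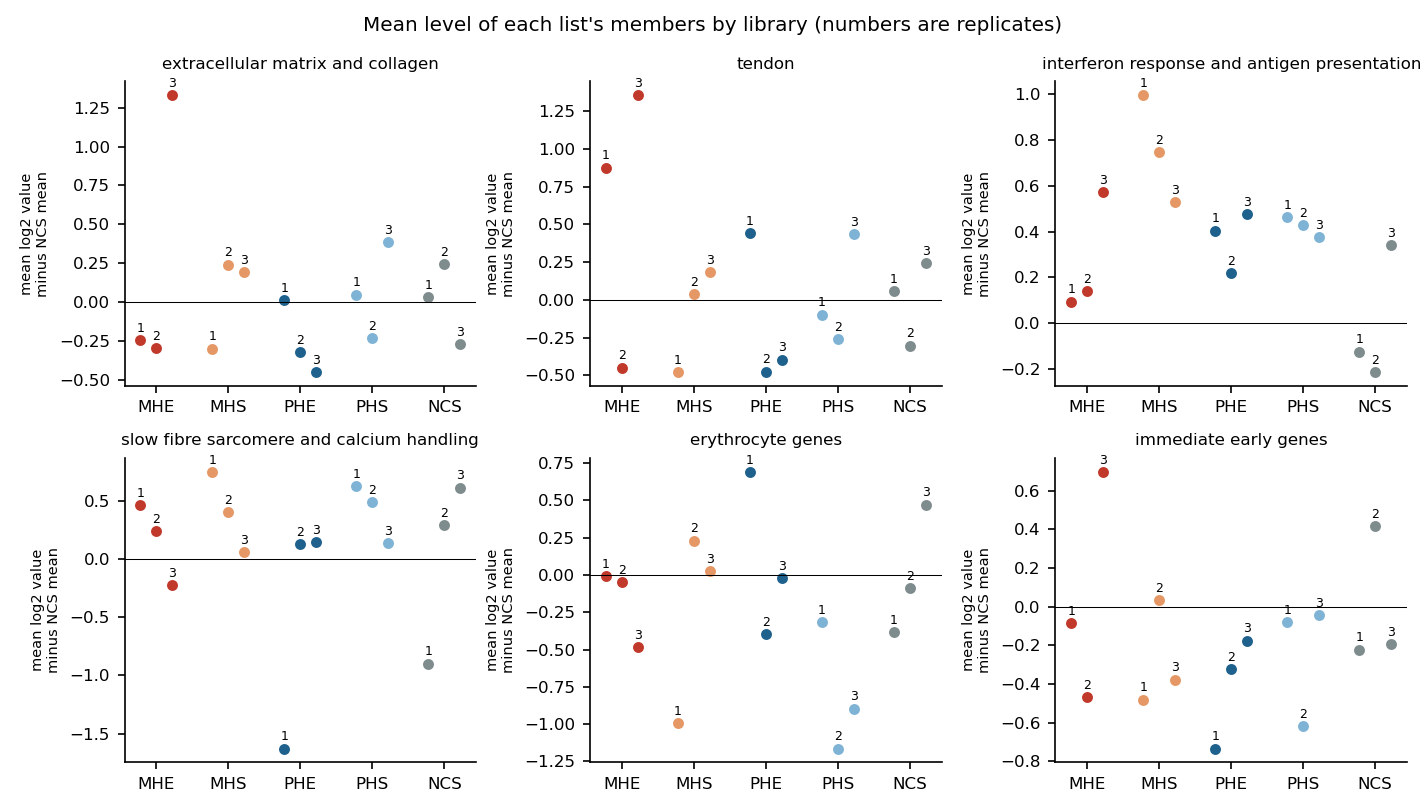
Mean log2 level of 6 gene lists in each library relative to the NCS mean, with replicate numbers beside the points. MHE replicate 3 stands high for matrix and immediate early genes, PHE replicate 1 stands low for slow fibre genes, and MHS libraries reach highest for interferon-response genes.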

How the data were processed

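Total RNA of quadriceps was prepared with a stranded kit after ribosomal RNA removal and read as 100 bp single ends, per the labels' protocols. The submitters' processing notes list the build mm10 and, as software, DESeq2 1.11.8, STAR 2.5.2b and featureCounts 1.5.2. The table deposited by the authors holds a signal per gene and sample, the read count divided by a size factor, as deduced from the values: in every library 100% of values were whole multiples of 1 step per library, within a tolerance of 0.001. Whole reads were so recovered, 18457663 to 26981745 per library, and 50462 of 50686 genes matched GENCODE M21 (GRCm38), which gave names and coordinates.

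Groups follow the group label, with 3 libraries each. In R 4.3.3, limma 3.58.1 (eBayes with a trend) was fitted to log2(normalized count + 1) of 13499 genes with a mean of at least 10, in all 15 libraries as 5 groups. Fold changes on this scale understate those of low genes. A gene passed at an adjusted p under 0.05 (Benjamini-Hochberg, over all tested genes). edgeR 4.0.16 (quasi-likelihood), DESeq2 1.42.0 and voom on recovered reads, other pseudocounts, filters, scalings and covariates, and leaving out libraries were alternatives. The fit was checked on simulated data. Python packages were numpy 2.4.6, pandas 2.3.3 and matplotlib 3.10.9.

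The rule for named genes took genes that passed, then up to 12 protein-coding genes each way with opposite signs, no overlap in either arm and a group mean of at least 50, up to 2 genes with opposite signs and the smallest p from each of 36 lists, and 10 chosen genes. Some of the 83 genes it named are given only in counts. The members and lists were chosen with earlier results of these data known, so lists are described by counts and medians, with no test.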

Additional observations from a re-analysis of the deposited data

How the results depend on the processing

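The difference between the exercise effects had 0 calls in limma under every alternative but 1, the title code as covariate, which called 1 gene (Postn). Genes under an unadjusted p of 0.05 numbered 842 with no filter, 140 with a mean of at least 50, 375 scaled to library totals, 468 with the title code and 157 to 859 leaving out each library (859 without PHS replicate 3, 604 without MHS replicate 1), against 243. Called genes in the maternal arm numbered 60 with DESeq2, 16 with the title code and 0 to 109 leaving out each library (109 without MHS replicate 1), against 0. In the paternal arm they numbered 1 with DESeq2, 11 with the title code and 0 to 1 leaving out each library.

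Genes with opposite and separate values numbered 50 with no filter, 13 with a mean of at least 50, 53 scaled to library totals, 264 without the 4 libraries with liver transcripts, 46 without the 2 with few detected genes and 38 to 274 leaving out each library (274 without PHS replicate 3), against 27. Fewer libraries leave fewer values to overlap, which raises these counts by construction. The Pearson r of the effects was 0.13 with no filter, 0.611 with edgeR, 0.482 with DESeq2, 0.185 with the liver score, 0.181 without the 4 liver libraries and -0.034 to 0.453 leaving out each library. The percent of genes with opposite signs was 42.3 scaled to library totals, 42.4 with the title code, 40.6 with the liver score and 31.1 to 48.2 leaving out each library. Scaled to library totals, the median difference of all genes was 0.19 and 75.9% were positive, against 49.6%.

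The sign turned for 7 of the genes followed. Myoz2 was -0.043 with the title code and -0.006 without the 4 liver libraries, against 0.63. Leaving out each library, Ppargc1a was -0.639 to 0.016 (the highest without PHS replicate 3), Slc2a4 was -0.266 to 0.038 (the highest without MHE replicate 1), Pdk4 was -0.165 to 0.224 and Mstn was -0.157 to 0.528 (the lowest without MHS replicate 3). Myh7 was -0.317 (without PHE replicate 1) to 1.091. Ppargc1a was 0.162 with the liver score. Scaled to library totals, Slc2a4 was 0.056 and Cs 0.114. Pdk4 was -0.12 without the 4 liver libraries and -0.021 without the 2 libraries with few genes, and also turned without MHE replicate 3, MHS replicate 3, PHE replicate 1 or PHS replicate 1. Myh7 was -0.954 with the title code. Mstn was -0.157 without the 2 libraries with few genes, -0.086 with the liver score and -0.536 without the 4 liver libraries. Postn alone came past the threshold, with the title code. The cause was not tested. No paired analysis was possible because the labels give no replicate numbers; the title code, whose meaning is not stated, entered as a covariate only. With it the differences of Rgl1 (0.82), Vangl2 (2.44), Gm20655 (2.34), Timmdc1 (-0.52), Apold1 (4.76), Egr3 (5.22), Col11a1 (3.15), Tnmd (2.65), Igf2 (0.92) and Rapsn (-0.74) were over 1.5 times as large. So were those of Nr4a3 (-3.75), Ppargc1a (-0.916), Cs (-0.188), Mstn (0.335) and Pdk4 (0.295), among others. With 3 libraries a group and a median standard error of 0.29, small differences were not detectable.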
